A study of Homo sapiens with 12 samples.

Results

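The genes described here are the TRIM (tripartite motif) genes, taken as every entry of the count table whose symbol is TRIM followed by a number and at most 1 further letter. Read-through and antisense entries were left out, and PML, a TRIM-type gene under another name, does not match the rule. The rule gave 72 of the 27685 genes in the table. RNA was sequenced from U251, an established human glioblastoma cell line, in 4 groups of 3 libraries: shINCA1 cells treated for 24 h with interferon gamma (IFNγ), untreated shINCA1 cells, shCTRL cells treated for 24 h with IFNγ, and untreated shCTRL cells. shINCA1 cells carry a stable short hairpin RNA against INCA1 and shCTRL cells a control hairpin. The labels name no more than 1 line per hairpin, and therefore the hairpin and other differences between the 2 lines cannot be told apart.

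TRIM proteins are built from a RING domain, 1 or more B-boxes and a coiled coil, followed by a variable C-terminal part such as a PRY/SPRY domain, NHL repeats or a PHD finger with a bromodomain. The RING domain binds a ubiquitin-conjugating enzyme, and through it most TRIM proteins act as E3 ligases that attach ubiquitin, or in some cases ISG15 or SUMO, to their targets. Not every member carries that domain: TRIM14, TRIM16, TRIM29, TRIM44 and TRIM66 are known to lack it, so the name E3 ligase describes the family rather than each gene. Interferons raise a subset of the family in many cell types, and several of these genes restrict viruses or tune the signalling of RNA and DNA sensors. IFNγ signals through JAK kinases, and its targets include the IRF factors that bind interferon-stimulated response elements.

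The start-site regions are shown first, because 9 members rose with IFNγ in both lines and 5 of these share a short motif there. RefSeq regions of assembly GRCh38.p14 from 250 bases before to 50 bases after a start were searched for the core of the interferon-stimulated response element, spelled GAAA, any 2 bases, then GAAA, on both strands and with overlapping matches allowed. The motif was found for 5 of the 8 members with a region that were raised in both lines (62.5%), for 4 of the 24 other tested members with a region (16.7%) and for 1195 of the 27305 genes with a region in RefSeq (4.38%). TRIM22 has no region among these sequences and was not searched. The gamma-activated site core, TTCNNNGAA, was found for 0 of the 8 raised members and 5 of the 24 other tested members (20.8%). Of all genes with a region, 9.38% held it. A match describes letters in this window, and binding was not measured. The stretches are written 5′ to 3′ on the strand of the gene with the letters of the motif in capitals. A gene with several regions was counted when any of them held the motif. TRIM34 has 2 regions, and only the one with the motif is shown. The stretches of TRIM5, TRIM14, TRIM34 and TRIM44 are the 100 bases before the start. That of TRIM26 lies from 220 to 121 bases before it, and that of TRIM21 covers 30 bases after it.
TRIM5, chr11:5685075-5685174, minus strand: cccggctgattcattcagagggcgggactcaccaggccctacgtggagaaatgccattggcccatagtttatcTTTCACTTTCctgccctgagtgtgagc
TRIM14, chr9:98119223-98119322, minus strand: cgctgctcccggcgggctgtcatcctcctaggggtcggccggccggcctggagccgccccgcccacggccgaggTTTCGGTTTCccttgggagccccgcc
TRIM21, chr11:4393663-4393692, minus strand: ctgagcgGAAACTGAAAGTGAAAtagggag
TRIM26, chr6:30213527-30213626, minus strand: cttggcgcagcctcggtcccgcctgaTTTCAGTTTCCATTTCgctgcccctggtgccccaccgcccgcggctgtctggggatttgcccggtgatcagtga
TRIM34, chr11:5624901-5625000, plus strand: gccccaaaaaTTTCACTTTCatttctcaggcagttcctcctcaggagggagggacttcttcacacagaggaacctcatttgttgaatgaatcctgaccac
TRIM44, chr11:35662675-35662774, plus strand: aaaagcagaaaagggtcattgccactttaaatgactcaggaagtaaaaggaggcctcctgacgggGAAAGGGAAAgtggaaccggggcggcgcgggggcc
TRIM21 and TRIM26 each hold 2 overlapping matches, while the others hold 1. TRIM34, whose rise was called in shINCA1 but not in shCTRL cells, is shown because it lies beside TRIM5 and TRIM22 on chromosome 11. The other tested members with the motif were TRIM2, TRIM16 and TRIM69, of which the first pair fell with IFNγ.

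Library totals were 46525032 to 66242859 estimated counts, and log2 CPM (counts per library total, adjusted by TMM factors) of replicates correlated at 0.9946 to 0.9961. Whether the 3 libraries of each group were grown as separate cultures is not in the labels, and all p-values then describe a spread between libraries that may be technical. The hairpin's target could not be followed: the table's INCA1 entry, with 5 to 19 counts per library, is a protein-coding gene, and the noncoding RNA was not analysed here. All 6 glioblastoma markers (VIM, NES, GFAP, S100B, SOX2, CD44) were detected, with summed levels per library of 2847 to 2899 CPM in IFNγ shINCA1, 2799 to 2836 in untreated shINCA1, 3339 to 3443 in IFNγ shCTRL and 3377 to 3483 in untreated shCTRL cells. The leukocyte list stayed at or below 0.162 CPM in sum, with 3 of its 5 genes at 0 in every library, and the epithelial and muscle lists at or below 0.199 CPM. The endothelial list summed to 0.815 to 1.31 CPM in IFNγ shINCA1, 2.32 to 2.69 in untreated shINCA1, 0.58 to 0.872 in IFNγ shCTRL and 0.863 to 1.08 in untreated shCTRL cells. Such sums follow the most abundant genes of a list, and the glioblastoma markers are compared between lines below. The part of these markers in the TRIM results was not tested.

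Of the 72 TRIM genes, 44 passed the filter on low counts and were tested, 18 were at 0 in all 12 libraries and 10 had counts too low to test. Among the genes at 0 were TRIM31, an interferon-responsive regulator of the MAVS adaptor in other cells, the muscle ligase TRIM63 and the TRIM49 and TRIM64 group. TRIM28 (KAP1, the corepressor of KRAB zinc finger proteins) averaged 214 ± 2.04 CPM in IFNγ shINCA1, 206 ± 11.9 in untreated shINCA1, 371 ± 9.4 in IFNγ shCTRL and 374 ± 11.8 in untreated shCTRL cells (SD, n = 3 each). CPM is not divided by gene length, so levels of different genes are not ranked.

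The first question was which TRIM genes respond to IFNγ. In shINCA1 cells 11 of 44 members rose (25%) and 5 fell (11.4%), against 6.13% and 2.95% of all 15769 tested genes. In shCTRL cells 9 rose (20.5%) and 11 fell (25%), against 9.72% and 7.51% of all tested genes. A rise of at least 2-fold was called for 5 members in shINCA1 cells (11.4%, against 1.5% of all genes) and for 6 in shCTRL cells (13.6%, against 2.23%). No fall of that size was called for a member, against 0.146% of all genes in shINCA1 and 0.495% in shCTRL cells. A fitted -4.69 for TRIM54 in shCTRL cells, from 9 untreated counts and 0 with IFNγ, was not called. The median log2 change of the tested members was 0.02 in shINCA1 and -0.08 in shCTRL cells, beside 0 and -0.01 for all tested genes. The median absolute log2 change was 0.18 in shINCA1 and 0.22 in shCTRL cells, beside 0.09 and 0.12 for all tested genes. Both responses gave a rise to TRIM5, TRIM14, TRIM21, TRIM22, TRIM25, TRIM26, TRIM38, TRIM44 and TRIM56, and a fall to TRIM2, TRIM16, TRIM16L and TRIM45. The share of all tested genes with the same call in both lines was not counted, so this overlap has no background to be read against. The 9 rises passed the test in both lines under every alternative setting run.

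**Figure D1:**
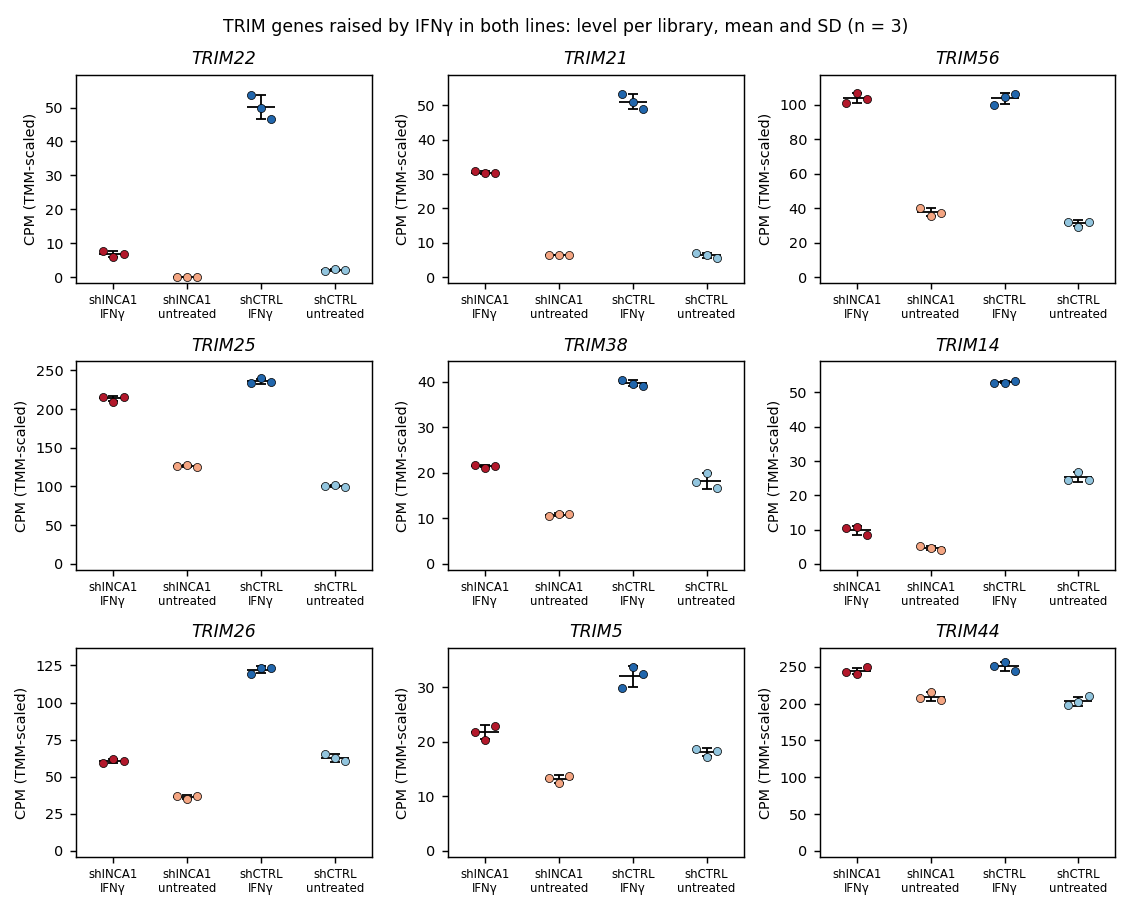
Level of each of the 9 TRIM genes that rose with IFNγ in both lines, in CPM scaled by TMM factors, with 1 point per library and the mean and SD of 3 libraries per group. In every panel the IFNγ libraries of a line lie above its untreated libraries, and TRIM22 and TRIM14 lie far lower in shINCA1 than in shCTRL cells under both conditions.

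Among the restriction factors of chromosome 11p15 and the antibody receptor, 4 of 5 rose in shINCA1 cells and 3 of 5 in shCTRL cells. The shares of all tested genes that rose were 6.13% and 9.72%. The lines differ here by TRIM34, whose call depends on a read-through entry, as given below. TRIM21, a cytosolic receptor for antibody-coated virus, had 30.9, 30.2 and 30.2 CPM in the IFNγ shINCA1 libraries and 6.37, 6.33 and 6.51 in the untreated ones. In shCTRL cells it had 53.2, 51.1 and 48.9 CPM with IFNγ and 6.92, 6.32 and 5.67 without. The untreated lines overlapped, and the treated ones did not, with every shINCA1 library lower. The log2 change with IFNγ was 2.25 ± 0.07 (SE) in shINCA1 cells (adjusted p = 2.98e-10) and 3.02 ± 0.07 in shCTRL cells (adjusted p = 1.72e-11).

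TRIM22, a SPRY-domain antiviral factor, had 444, 296 and 363 counts in the IFNγ shINCA1 libraries and 0, 0 and 8 in the untreated ones. In shCTRL cells it had 2586, 3186 and 2804 counts with IFNγ and 114, 109 and 119 without. The gene was thus close to undetected in untreated shINCA1 cells, and IFNγ brought these cells to 6.83 ± 0.857 CPM, above the 2.11 ± 0.213 CPM of untreated shCTRL cells but far below their 50.1 ± 3.54 CPM with IFNγ (SD, n = 3). The ratio of treated to untreated counts in shINCA1 cells was 159 (95% exact interval 80.4 to 369), and without untreated library 3 the untreated group would be at 0. This interval takes estimated counts as fragments and leaves out the spread between libraries, so it is too narrow. In shCTRL cells the log2 change was 4.57 ± 0.21 (adjusted p = 1.79e-08).

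TRIM5, whose SPRY domain binds retroviral capsids, had 21.8, 20.4 and 22.9 CPM in IFNγ shINCA1 and 13.4, 12.4 and 13.7 in untreated shINCA1 libraries. In shCTRL cells its levels were 29.9, 33.8 and 32.4 CPM with IFNγ and 18.7, 17.2 and 18.2 without. All treated libraries of a line were above its untreated ones, with log2 changes of 0.72 ± 0.06 in shINCA1 (adjusted p = 1.15e-05) and 0.82 ± 0.06 in shCTRL cells (adjusted p = 1.76e-06). TRIM6, a ligase that makes unanchored ubiquitin chains in interferon signalling, did not rise in either line. It had 2.14, 1.61 and 2.09 CPM in IFNγ shINCA1 and 2.49, 1.71 and 2.65 in untreated shINCA1 libraries, against 7.95, 7.45 and 8.26 in IFNγ shCTRL and 10.7, 10.6 and 10.9 in untreated shCTRL libraries. Its log2 change was -0.23 ± 0.15 in shINCA1 (adjusted p = 0.502) and -0.45 ± 0.13 in shCTRL cells (adjusted p = 0.0409). The fall in shCTRL cells lost its call without any 1 of the 6 shCTRL libraries or without IFNγ shINCA1 library 3 (adjusted p 0.0514 to 0.11).

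TRIM34, which also binds retroviral capsids and works with TRIM5, had 185, 103 and 158 counts in IFNγ shINCA1 and 42, 4 and 63 in untreated shINCA1 libraries. In shCTRL cells the counts were 213, 184 and 244 with IFNγ and 91, 99 and 82 without. Treated libraries were above untreated ones in both lines. The test called the rise in shINCA1 cells (log2 change 2.24 ± 0.51, adjusted p = 0.016, and 0.0536 without IFNγ library 1) and not in shCTRL cells (1.16 ± 0.47, adjusted p = 0.123). However, 83.6% of the exonic bases of TRIM34 are shared with a read-through entry, TRIM6-TRIM34. That entry held 0, 0 and 25 counts in IFNγ shINCA1, 0, 113 and 42 in untreated shINCA1, 0, 86 and 0 in IFNγ shCTRL and 0 in each untreated shCTRL library. The library with 4 TRIM34 counts was the one with 113 read-through counts. With both entries summed, a step chosen after these values were seen, the log2 change was 1.04 ± 0.29 in shINCA1 (adjusted p = 0.0496) and 1.33 ± 0.29 in shCTRL cells (adjusted p = 0.00753). TRIM34 values are therefore uncertain wherever the 2 entries are apart.

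**Figure D2:**
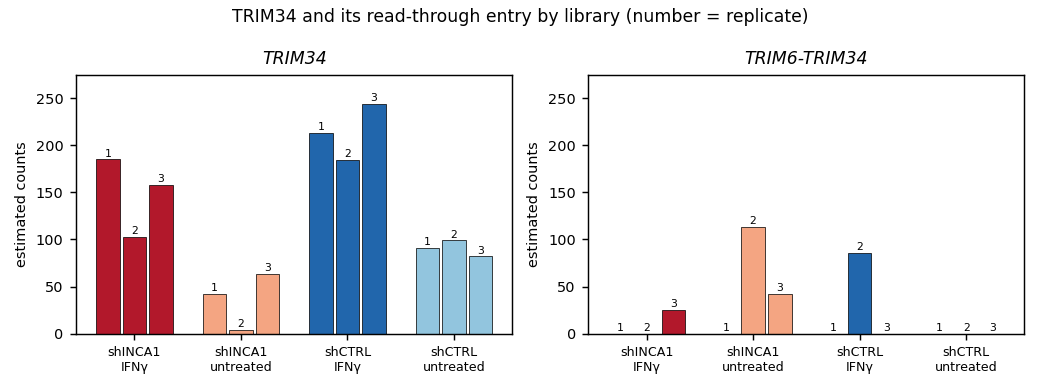
Estimated counts of TRIM34 (left) and of the read-through entry TRIM6-TRIM34 (right) in each library, with bars numbered by replicate. Untreated shINCA1 library 2 has 4 counts in TRIM34 and 113 in the read-through entry, while the untreated shCTRL libraries have 82 to 99 in TRIM34 and none in the read-through entry.

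Of the regulators of RNA and DNA sensor signalling, 13 of 14 were tested. In each line 6 rose, against 6.13% of all tested genes in shINCA1 and 9.72% in shCTRL cells. TRIM25, which ubiquitinates the RNA sensor RIG-I and can attach ISG15, had 216, 209.5 and 216 CPM in IFNγ shINCA1 and 126, 128 and 125 in untreated shINCA1 libraries. In shCTRL cells it had 233, 239.7 and 234 CPM with IFNγ and 101, 102 and 99.6 without. No 2 groups overlapped, and the untreated level was higher in shINCA1 cells while the treated one was higher in shCTRL cells. The log2 change was 0.76 ± 0.02 in shINCA1 (adjusted p = 7.82e-10) and 1.23 ± 0.03 in shCTRL cells (adjusted p = 7.79e-12). TRIM56, a regulator of cGAS and STING signalling, had 101, 107 and 104 CPM in IFNγ shINCA1 and 40.4, 35.4 and 37.5 in untreated shINCA1 libraries. In shCTRL cells it had 100.1, 105 and 106 CPM with IFNγ and 32.3, 29.3 and 32 without. It reached the same range in both lines with IFNγ, with log2 changes of 1.46 ± 0.05 in shINCA1 (adjusted p = 2.11e-09) and 1.73 ± 0.05 in shCTRL cells (adjusted p = 3.67e-10).

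TRIM14, a RING-less adaptor of the MAVS and cGAS pathways, had 10.5, 10.7 and 8.31 CPM in IFNγ shINCA1 and 5.29, 4.72 and 4.04 in untreated shINCA1 libraries. In shCTRL cells its levels were 52.8, 52.8 and 53.2 CPM with IFNγ and 24.5, 26.9 and 24.4 without. The line separated these levels more than the treatment did, and the log2 change with IFNγ was 1.07 ± 0.11 in shINCA1 (adjusted p = 3.07e-05) and 1.07 ± 0.10 in shCTRL cells (adjusted p = 8.03e-06). TRIM26, known to act on IRF3 and on the kinase TBK1, had 59.5, 61.9 and 60.9 CPM in IFNγ shINCA1, 37.1, 35 and 36.9 in untreated shINCA1, 119.5, 124 and 123 in IFNγ shCTRL and 65.2, 62.3 and 60.3 in untreated shCTRL libraries. TRIM38, a feedback regulator of TLR and TNF signalling, had 21.6, 21.1 and 21.6, then 10.5, 11 and 11, 40.4, 39.4 and 39.1 and 17.9, 20.01 and 16.6 CPM in the same order of groups. With IFNγ the shINCA1 libraries of TRIM26 overlapped the untreated shCTRL libraries, and those of TRIM38 lay just above them. Their log2 changes were 0.74 ± 0.04 and 0.98 ± 0.06 in shINCA1 cells (adjusted p = 6.03e-08 and 4.53e-07), and 0.96 ± 0.04 and 1.13 ± 0.06 in shCTRL cells (adjusted p = 3.28e-09 and 6.46e-08).

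TRIM44, a RING-less protein that stabilises MAVS, rose least among the 9, with 243, 240.3 and 249 CPM in IFNγ shINCA1 and 208, 216 and 204 in untreated shINCA1 libraries. Its shCTRL levels were 252, 256 and 245 CPM with IFNγ and 198, 202 and 210.0 without. The log2 changes were 0.22 ± 0.03 in shINCA1 (adjusted p = 0.000646) and 0.30 ± 0.03 in shCTRL cells (adjusted p = 2.76e-05). Of the other sensor regulators, TRIM8, TRIM13 and TRIM65 fell in shCTRL cells and none fell in shINCA1 cells. TRIM69, an antiviral member, had 31, 26 and 21 counts in IFNγ shINCA1 and 0, 12 and 13 in untreated shINCA1 libraries, against 13, 37 and 27 in IFNγ shCTRL and 3, 7 and 3 in untreated shCTRL libraries. Treated libraries were above untreated ones in both lines, and at this depth the log2 changes of 1.86 ± 0.75 in shINCA1 and 2.38 ± 0.81 in shCTRL cells did not pass the test (adjusted p = 0.185 and 0.0658).

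The 4 members that fell in both lines had log2 changes of -0.52 to -0.19. TRIM2, an NHL-repeat ligase known from neurons, where it targets neurofilament light chain, had 93.5, 86.3 and 93 CPM in IFNγ shINCA1 and 118, 132 and 121 in untreated shINCA1 libraries. In shCTRL cells it had 217, 216 and 202 CPM with IFNγ and 298, 305 and 308 without. All treated libraries of a line were below its untreated ones, and the log2 changes were -0.44 ± 0.05 in shINCA1 (adjusted p = 5.46e-05) and -0.52 ± 0.05 in shCTRL cells (adjusted p = 7.36e-06). TRIM16, known from the clearance of damaged lysosomes, had 70.6, 69.4 and 71.1 CPM in IFNγ shINCA1, 86.3, 86.2 and 83.3 in untreated shINCA1, 104, 107 and 109.9 in IFNγ shCTRL and 133, 126 and 134 in untreated shCTRL libraries. It fell by 0.28 ± 0.03 on the log2 scale in shINCA1 (adjusted p = 0.000137) and by 0.29 ± 0.03 in shCTRL cells (adjusted p = 4.48e-05). Its near copy TRIM16L gave -0.19 ± 0.04 in shINCA1 and -0.27 ± 0.04 in shCTRL cells (adjusted p = 0.00669 and 0.000243), though reads can be split between the 2 genes. TRIM45 changed by -0.27 ± 0.08 in shINCA1 (adjusted p = 0.0442) and -0.46 ± 0.08 in shCTRL cells (adjusted p = 0.00107).

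Calls made in 1 line alone, TRIM34 aside, had log2 changes of -0.56 to 0.14. For none of them, TRIM34 included, did the difference between lines pass the test. In shINCA1 cells TRIM9, a ligase of neurons, changed by -0.56 ± 0.12 (adjusted p = 0.0133) and TRIM27, the ret finger protein, by 0.14 ± 0.04 (adjusted p = 0.037). In shCTRL cells TRIM13, an ER-membrane ligase, changed by -0.31 ± 0.06 (adjusted p = 0.00198), TRIM24, a PHD-bromodomain regulator of p53, by -0.15 ± 0.04 (adjusted p = 0.013) and TRIM37, a ligase of peroxisomes and centrosomes, by -0.14 ± 0.03 (adjusted p = 0.0149). TRIM8, TRIM52, TRIM65 and TRIM6 made up the rest of the 11 falls in shCTRL cells, at -0.45 to -0.17. Without IFNγ shCTRL library 2 the falls in shCTRL cells numbered 7, and without IFNγ shINCA1 library 1 or untreated shINCA1 library 2 or 3 those in shINCA1 cells numbered 3. Calls lost without 1 library were TRIM8 (IFNγ or untreated shCTRL library 2, adjusted p 0.0524 and 0.0527), TRIM24 (IFNγ shCTRL library 3, 0.0601), TRIM37 (untreated shCTRL library 3, 0.064), TRIM65 (IFNγ shCTRL library 1 or 2 or untreated shCTRL library 1 or 3, 0.0593 to 0.0629) and TRIM9 (IFNγ shINCA1 library 1 or untreated shINCA1 library 2 or 3, 0.0532 to 0.0584). TRIM27 and TRIM45 in shINCA1 cells each lost theirs without any of 9 libraries (up to 0.152 and 0.16), and TRIM52 without any of 8 (up to 0.167), including libraries of both lines.

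**Figure D3:**
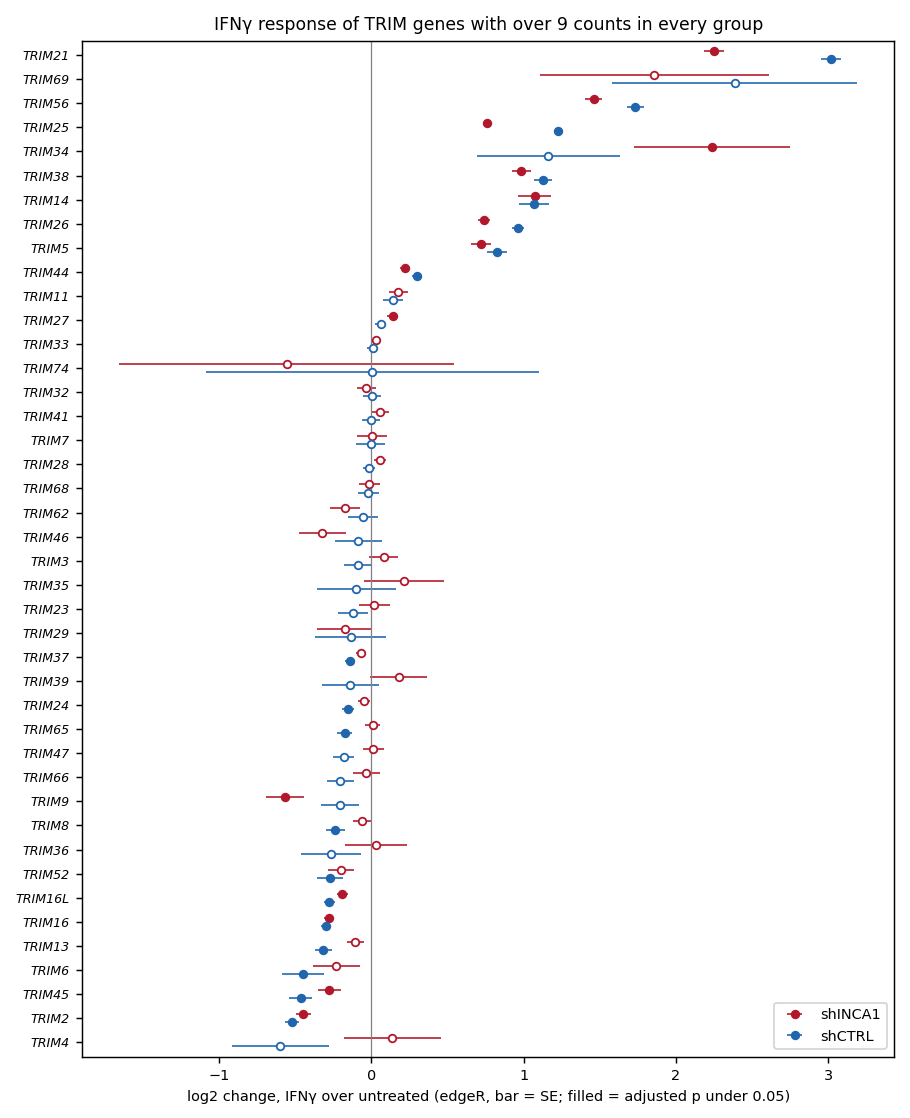
Log2 change with IFNγ of the tested TRIM genes that had over 9 counts in every group, with bars for the SE and filled points for an adjusted p under 0.05, shINCA1 above shCTRL for each gene. Genes are ordered by the shCTRL value, with TRIM21 at the top (3.02). Open points of TRIM69 in both lines and of TRIM34 in shCTRL cells lie among the genes that rose. TRIM22 is left out by its 8 counts in untreated shINCA1 cells, and the falls stay within 1 log2 unit of 0.

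The second question was how shINCA1 cells differ from shCTRL cells. With IFNγ, 9 of 44 members were higher in shINCA1 cells (20.5%) and 18 lower (40.9%), against 28.7% and 30.2% of all tested genes. Without IFNγ, 10 were higher (22.7%) and 19 lower (43.2%), against 27.4% and 29.5%. The median log2 difference over the tested members was -0.16 with and -0.21 without IFNγ, beside 0 and -0.01 for all tested genes. The share of members that were higher lay below that of all genes and the share that were lower above it, and the list was not tested as a set. Of the glioblastoma markers, 5 of 6 were lower in shINCA1 cells under both conditions and CD44 was higher. The median log2 difference of these 6 was -0.74 with and -1.25 without IFNγ, and the part of this in the TRIM differences was not tested. Both conditions gave the same call for 14 members lower and 7 higher in shINCA1 cells. The matching share over all tested genes was not counted.

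TRIM14, TRIM22, TRIM6 and TRIM2 were lower in shINCA1 than in shCTRL cells by more than 1 log2 unit under both conditions. The log2 difference of TRIM14 was -2.43 ± 0.10 with IFNγ (adjusted p = 2.37e-09) and -2.43 ± 0.11 without (adjusted p = 3.1e-09). For TRIM22 it was -2.87 ± 0.19 with IFNγ (adjusted p = 1.05e-07), and without IFNγ the ratio of counts was 0.0206 (95% exact interval 0.00883 to 0.0411), from 8 counts in shINCA1 and 342 in shCTRL libraries. That interval is too narrow for the same reasons as the one above. TRIM6 differed by -2.01 ± 0.15 with and -2.23 ± 0.15 without IFNγ. The read-through entry TRIM6-TRIM34 holds 29.2% of the exonic bases of TRIM6, and with its counts added to TRIM6, again a step chosen after the values were seen, the differences were -1.98 ± 0.16 with and -1.78 ± 0.15 without IFNγ. The same step took the IFNγ response of TRIM6 to -0.57 ± 0.16 in shINCA1 (adjusted p = 0.0474) and -0.37 ± 0.14 in shCTRL cells (adjusted p = 0.106), so which line has the called fall turned. TRIM2 differed by -1.22 ± 0.05 with and -1.29 ± 0.05 without IFNγ. TRIM5 was lower by less, at -0.56 ± 0.06 with and -0.46 ± 0.07 without IFNγ. TRIM16 was also called lower, at -0.60 with and -0.62 without IFNγ, as was TRIM16L, at -0.41 and -0.49. After the median of its neighbours was subtracted TRIM16 stood at -0.56 with and -0.63 without IFNγ. Of the 5 restriction factors and antibody receptor, 4 were lower in shINCA1 cells with IFNγ (not TRIM34) and 4 without it (not TRIM21). Of all tested genes, 30.2% were lower with and 29.5% without IFNγ. The TRIM34 call without IFNγ (-1.53 ± 0.52, adjusted p = 0.0242) gave 0.0704 without untreated shCTRL library 2 and -0.25 ± 0.30 with the read-through entry summed (adjusted p = 0.504).

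The PHD-bromodomain members TRIM24 and TRIM28 were lower in shINCA1 cells, and TRIM33 (TIF1γ, a SMAD regulator) was not called. TRIM24 had 30.6, 31.6 and 31 CPM in IFNγ shINCA1 and 57.6, 56.9 and 55.1 in IFNγ shCTRL libraries, then 33.1, 32.6 and 30.6 in untreated shINCA1 and 63.4, 62.3 and 62.9 in untreated shCTRL libraries. The groups did not overlap between lines, with log2 differences of -0.86 ± 0.04 with and -0.97 ± 0.04 without IFNγ. For TRIM28 the differences were -0.79 ± 0.04 with and -0.86 ± 0.04 without IFNγ, and for TRIM33 they were -0.02 ± 0.03 and -0.04 ± 0.03, with 95% intervals of -0.09 to 0.06 and -0.11 to 0.04. TRIM66, the other member of this group, was higher in shINCA1 cells with IFNγ (0.29 ± 0.09, adjusted p = 0.0146) and not called without (0.12 ± 0.09, adjusted p = 0.278). TRIM29 (ATDC), a RING-less p53-binding protein best known from epithelia, was higher in shINCA1 cells. It had 8.52, 9.1 and 8.46 CPM in IFNγ shINCA1 and 1.64, 0.784 and 0.897 in IFNγ shCTRL libraries, then 9.54, 9.74 and 10.1 in untreated shINCA1 and 1.29, 1.36 and 0.935 in untreated shCTRL libraries. Every shINCA1 library was above every shCTRL library, and the log2 difference was 2.9985 ± 0.21 with (adjusted p = 1.77e-07) and 3.04 ± 0.21 without IFNγ (adjusted p = 1.51e-07). TRIM8, TRIM11, TRIM41, TRIM47, TRIM52 and TRIM65 were also higher in shINCA1 cells under both conditions, by 0.19 to 0.63. TRIM47 shares 51.6% of its exonic bases with an antisense noncoding gene and whether the counting used strand is not stated, so its value is uncertain, as is that of TRIM52 beside an antisense entry. TRIM8 shares 19.3% with an antisense entry. TRIM16 shares 23.5% and TRIM2 20% with a protein-coding entry on the same strand, so reads of these genes can also be split. TRIM39 shares 29.5% with the same-strand read-through entry TRIM39-RPP21 and 15.2% with an antisense entry. With the read-through counts summed, a step chosen after the values were seen, TRIM39 differed by -0.49 ± 0.17 between untreated lines (adjusted p = 0.0253).

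Several of these differences were close to those of neighbouring genes, and the part of genome position in them was not tested. For each member the median log2 difference of 11 to 20 tested neighbours, TRIM genes left out, was subtracted. TRIM26, TRIM27, TRIM38 and TRIM39 lie on chromosome 6p around the MHC genes, where the neighbours had medians of -0.47, -0.57, -0.67 and -0.49 between untreated lines. Before subtraction the untreated differences were -0.78 for TRIM26, -0.74 for TRIM38, -0.50 for TRIM39 and -0.38 for TRIM27. With IFNγ they were -1.01, -0.89, -0.18 and -0.30 in that order, and TRIM39 was not called. Relative to the neighbours, TRIM26 stood at -0.31, TRIM38 at -0.07, TRIM39 at -0.01 and TRIM27 at 0.20 between untreated lines. The direction of TRIM27 thus turned, as it did with IFNγ (0.30). The neighbours of TRIM28 on chromosome 19 had a median of -0.66, which left -0.20 for TRIM28. Of the members called between lines, subtraction moved the value by over 1.5 times for 9 of 27 with IFNγ and for 13 of 29 without. Outside chromosome 6 and TRIM28, TRIM2 came to -0.87 with and -0.84 without IFNγ, TRIM9 to -1.06 with IFNγ, where it was -0.61 ± 0.13 before, and TRIM23 to -0.04 with and -0.14 without IFNγ, where it was -0.30 ± 0.10 and -0.44 ± 0.10. TRIM16L came to -0.75 with and -0.77 without IFNγ, TRIM8 to 0.27 with and 0.10 without, and, without IFNγ, TRIM41 to 0.29, TRIM45 to -0.04 and TRIM56 to 0.18. For TRIM14, TRIM22, TRIM6, TRIM24 and TRIM29 the values between untreated lines after subtraction were -2.46, -5.58, -2.27, -0.84 and 2.9999, close to the unadjusted ones, that of TRIM22 being a fitted value from a group of 8 counts.

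Some calls between lines rested on single libraries. With IFNγ these were TRIM46 (without IFNγ shINCA1 library 3, adjusted p = 0.0552), TRIM66 (without IFNγ shCTRL library 1 or IFNγ shINCA1 library 2 or 3, 0.0521 to 0.0582) and TRIM23 (without IFNγ shINCA1 library 1 or 2 or IFNγ shCTRL library 2 or 3, 0.0768 to 0.106). Without IFNγ they were TRIM3 (untreated shINCA1 library 2 or 3 or untreated shCTRL library 1, 0.0587 to 0.12), TRIM36 (any untreated library but shCTRL library 1, 0.0504 to 0.145), TRIM39 (untreated libraries 1 and 2 of both lines, 0.102 to 0.149), TRIM45 (untreated shINCA1 library 1 or 2 or untreated shCTRL library 1 or 3, 0.0727 to 0.104), and TRIM41 and TRIM62 (untreated shINCA1 library 1 or untreated shCTRL library 2 or 3, 0.0536 to 0.0677). TRIM54, a muscle microtubule ligase, had 0, 14 and 13 counts in IFNγ shINCA1 and none in IFNγ shCTRL libraries, at least 3.22-fold higher, and lost its call without any of 8 libraries (up to 0.0932).

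**Figure D4:**
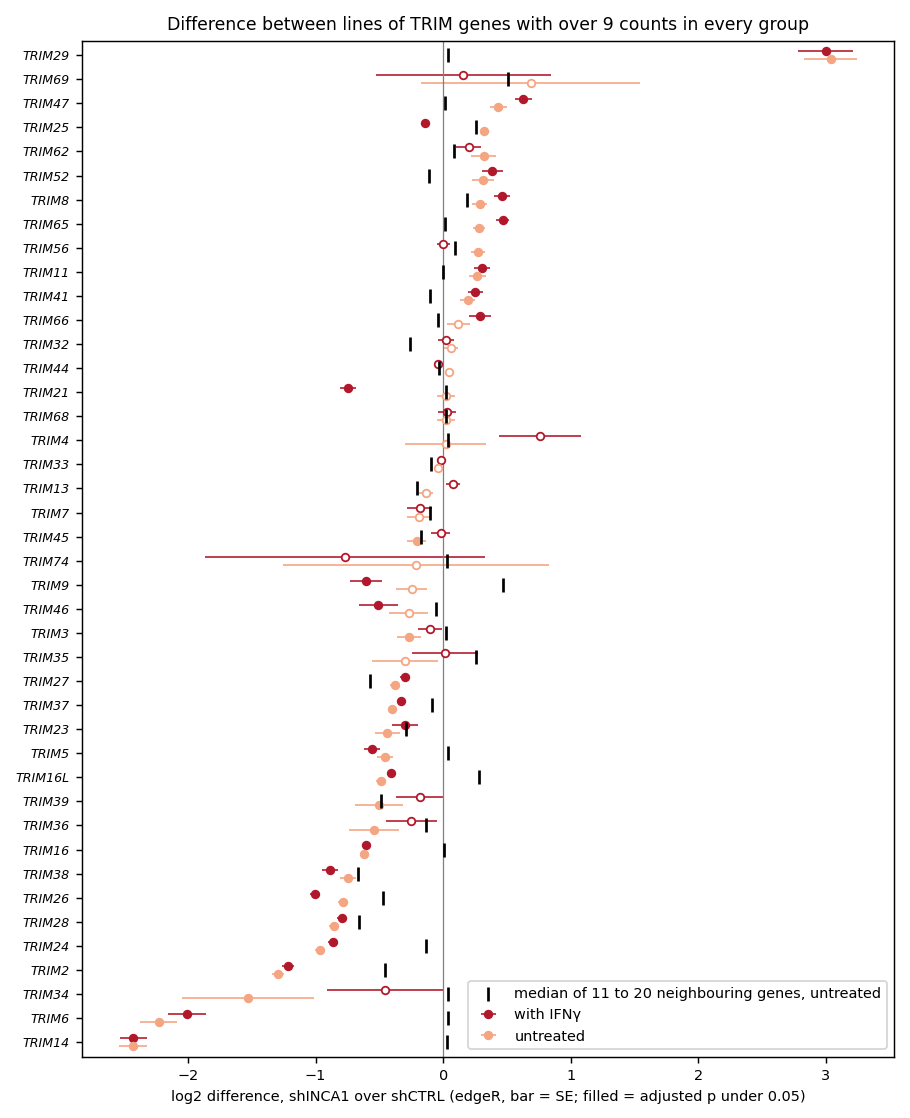
Log2 difference between shINCA1 and shCTRL cells for the tested TRIM genes with over 9 counts in every group, with IFNγ (above) and untreated (below), bars for the SE, filled points for an adjusted p under 0.05 and a black tick for the median of the neighbouring genes between untreated lines. TRIM29 stands apart on the right and TRIM14 and TRIM6 on the left, while the ticks of TRIM26, TRIM27, TRIM28, TRIM38 and TRIM39 lie well below 0.

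The third question was whether the IFNγ response itself differed between lines, tested as an interaction. Of 44 members 1 was called with a larger response in shINCA1 cells (2.27%, against 0.615% of all genes) and 2 with a smaller one (4.55%, against 1.1%). The response of TRIM21 was smaller in shINCA1 cells by a log2 difference of -0.77 ± 0.09 (adjusted p = 0.00108) and that of TRIM25 by -0.47 ± 0.04 (adjusted p = 3.42e-05), and both calls held under every alternative run. For TRIM21 the treated lines differed by -0.75 ± 0.06 (adjusted p = 6.35e-07) and the untreated lines by 0.02 ± 0.07 (95% interval -0.12 to 0.17). For TRIM25 the treated lines differed by -0.14 ± 0.02 and the untreated lines by 0.32 ± 0.02, so its order turned with treatment. After the median of its neighbours was subtracted these were -0.31 treated and 0.07 untreated, and the difference of responses was -0.49. TRIM22 was the member with the larger response in shINCA1 cells, at a fitted 2.67 ± 0.58 (adjusted p = 0.0416). That value depends on an untreated shINCA1 group with 8 counts, all in library 3. It became 7.02 without that library, and the call was lost without any 1 of the other 11 libraries (adjusted p 0.0596 to 0.11).

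The remaining interferon-raised members did not pass the interaction test. TRIM26 differed by -0.22 ± 0.05 (adjusted p = 0.0649) and TRIM56 by -0.27 ± 0.07 (adjusted p = 0.111), with 95% intervals of -0.34 to -0.11 and -0.44 to -0.11. The DESeq2 Wald test called both, with adjusted p of 0.00403 and 0.00575. TRIM26 was also called with RLE factors, without a filter, with the 5 CPM filter and without untreated shCTRL library 1 or untreated shINCA1 library 2 (adjusted p 0.0285 to 0.0432), and TRIM56 without untreated shINCA1 library 2 (0.0387). For TRIM14, much lower in shINCA1 cells under both conditions, the difference of responses was 0.00 ± 0.13, with a 95% interval of -0.29 to 0.30. The intervals of TRIM5, TRIM38 and TRIM44 were -0.30 to 0.09, -0.33 to 0.05 and -0.18 to 0.02.

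Genes that work with TRIM proteins were read beside them. Of 11 ubiquitin and ISG15 enzymes, 3 rose in each line, none fell and 8 were not called, against rises of 6.13% of all tested genes in shINCA1 and 9.72% in shCTRL cells. UBE2L6, the conjugating enzyme for ISG15, had 58.5, 56.3 and 54.3 CPM in IFNγ shINCA1, 4.34, 2.78 and 3.68 in untreated shINCA1, 89.7, 91.9 and 87.3 in IFNγ shCTRL and 5.88, 5.11 and 5.13 in untreated shCTRL libraries, with log2 changes of 3.97 ± 0.12 in shINCA1 and 4.06 ± 0.12 in shCTRL cells. ISG15, the ubiquitin-like modifier, changed by 1.57 ± 0.10 in shINCA1 and 1.79 ± 0.10 in shCTRL cells, while UBE2D3, a general partner of RING ligases, changed by 0.09 ± 0.02 and 0.20 ± 0.02. Of 13 tested substrates and partners 5 rose in each line and 8 were not called. Among the 5 were the RNA sensors IFIH1 (MDA5) and DDX58 (RIG-I), TMEM173 (STING) and IRF3. DDX58, the substrate of TRIM25, had 37, 37.1 and 39.7 CPM in IFNγ shINCA1, 9.13, 11.4 and 9.73 in untreated shINCA1, 49, 48.8 and 46.4 in IFNγ shCTRL and 7.41, 9.7 and 8.27 in untreated shCTRL libraries. Its response was 1.91 ± 0.10 in shINCA1 and 2.51 ± 0.10 in shCTRL cells, a difference of -0.60 ± 0.13 (adjusted p = 0.04999). That of IFIH1 was 3.14 ± 0.07 in shINCA1 and 3.59 ± 0.07 in shCTRL cells, a difference of -0.44 ± 0.09 (adjusted p = 0.034). Between lines, 8 of the 11 enzymes were lower in shINCA1 cells under each condition, as were 9 of the 13 substrates and partners with IFNγ and 7 without, against 30.2% of all tested genes with IFNγ and 29.5% without. Of the TRIM-type genes under other names, MID1, a microtubule-bound ligase, fell in both lines, with log2 changes of -0.18 ± 0.04 in shINCA1 and -0.33 ± 0.04 in shCTRL cells, and the response of MID2 was not called.

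A few members varied between replicates or were near the detection limit. TRIM4, a RIG-I ligase, had 46.7, 46.3 and 44.6 CPM in IFNγ shINCA1, 23.1, 49.3 and 52.5 in untreated shINCA1, 20, 18.6 and 42.8 in IFNγ shCTRL and 40.0, 39 and 44.1 in untreated shCTRL libraries, so that untreated shINCA1 library 1 and IFNγ shCTRL libraries 1 and 2 lay well below the rest. TRIM35, a regulator of glycolysis and growth, likewise had 15.8 to 24.9 CPM in IFNγ shINCA1, 12.2 to 22.1 in untreated shINCA1, 14.3 to 25.7 in IFNγ shCTRL and 22.6 to 24.2 in untreated shCTRL libraries. Neither passed the test in any comparison. TRIM15, of the MHC region, had 0, 15 and 3 counts in IFNγ shINCA1 and 3, 3 and 17 in untreated shINCA1 libraries and was at 0 in all shCTRL libraries, at least 2.15-fold and at least 2.25-fold higher in shINCA1 cells with and without IFNγ. TRIM71, an NHL-repeat protein of stem cells, was at 0 in untreated shINCA1 libraries, against 14 counts in 1 untreated shCTRL library, at least 1.76-fold lower. TRIM10 was at 0 in untreated shCTRL cells and had 9 counts in untreated shINCA1 cells, at the floor of 3 counts per library. These folds against 0 are bounds at that floor and cover counting error alone.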

How the data were processed

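Poly(A) RNA of U251 cells was sequenced in 12 libraries, 3 per group, with a stranded messenger RNA kit, per the labels' protocols. The deposited table holds estimated counts per gene symbol, whole numbers that are not scaled between samples. FastQC, Trimmomatic, HISAT2, StringTie and build hg19 were used per the submitters' processing notes. No version, annotation or strand setting is given in the sources used here. Among low values, 3 occurs 5790 times and 6 occurs 4120 times, while 2 occurs 2186 and 4 occurs 1317 times. A fragment thus often appears to be worth about 3 units, and exact intervals are too narrow. A floor of 3 counts per library was used for bounds against groups at 0.

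The test was edgeR 4.0.16 (R 4.3.3) in its quasi-likelihood form, with filterByExpr, which kept 15769 genes and 99.986% of all counts, with TMM factors, all 12 libraries in 1 fit, two-sided, with Benjamini-Hochberg adjustment over all tested genes and a threshold of 0.05. Standard errors are the log2 change over the square root of F, and intervals are 95%. The procedure was checked on simulated data. Samples were grouped by their titles, with every column mapped. The members and gene lists were chosen with earlier results of these data known. The genes named are TRIM21, TRIM22 and TRIM25, up to 10 raised and 10 lowered members per comparison by p, and members at 0 in a group and above the floor in another. Neighbours and start-site sequences come from RefSeq GRCh38.p14, by symbol (72 of 72 members matched; 56 have a start-site region), since counts were made on hg19. Shares of exonic bases come from GENCODE exons of all transcripts of a gene, and may differ in the annotation behind the counts, which is not given. A search of member proteins for RING motifs was not run. One gene of the list of substrates and partners is not reported here. Alternatives were DESeq2 1.42.0, limma-voom (limma 3.58.1), other scaling factors and filters, a replicate block, fits of the groups compared alone, each library left out, an adjusted p of 0.01 and neighbour subtraction. Summing the read-through entries, also into TRIM6, was added after the data were seen.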

Additional observations from a re-analysis of the deposited data

Results flagged for a closer look

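For 3 of 44 tested members the interaction term of the fit, a test of the difference itself, called the IFNγ response different between lines. A larger response in shINCA1 cells was called for 2.27% of members and 0.615% of all tested genes, a smaller one for 4.55% and 1.1%. For TRIM21, the cytosolic antibody receptor, the response was smaller in shINCA1 than in shCTRL cells by a log2 difference of -0.77 ± 0.09 (SE, edgeR adjusted p = 0.00108). For TRIM25, the RIG-I ligase, it was smaller by -0.47 ± 0.04 (adjusted p = 3.42e-05). For TRIM22 the fitted difference was 2.67 ± 0.58 (adjusted p = 0.0416), larger in shINCA1 cells, and it rests on an untreated shINCA1 group with 8 counts in 1 library and 0 in the other two. The groups have 3 libraries each, so single libraries were not screened as outliers.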

How the results depend on the processing

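Counts of called members stayed within 1.5 times their value under most alternatives. For the difference of responses, the number of members raised fell to 0 without a filter, with limma-voom, with the replicate block and at an adjusted p of 0.01, and was 0 to 1 when a library was left out. The number lowered became 4 with the DESeq2 Wald test and was 2 to 4 when a library was left out. In shCTRL cells, the falls with IFNγ numbered 5 at an adjusted p of 0.01 and 7 to 11 when a library was left out. In shINCA1 cells, they numbered 3 at 0.01 and 3 to 5 when a library was left out. The sign of TRIM27 between lines turned when the median of neighbouring genes was subtracted, to 0.3012 with IFNγ and 0.1977 untreated. The uncalled difference of TRIM21 between untreated lines ranged from -0.0504 to 0.0903 when a library was left out, negative without untreated shCTRL library 3. Of called members, 9 of 9 rises in shCTRL, 9 of 11 rises in shINCA1, 5 of 11 falls in shCTRL and 3 of 5 falls in shINCA1 cells kept their call under every alternative that was run at a threshold of 0.05. Replicate numbers did not pair the samples: same-numbered libraries had correlated deviations of -0.049 to 0.103, with 1 of 18 pairs over 0.1. Depth limits TRIM22 in untreated shINCA1 cells, TRIM34, TRIM54, TRIM69 and TRIM74, and the 10 members with counts too low to test.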
